A study of Homo sapiens with 6 samples.

Results

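Transcripts of 10 BCL2-family genes were compared in H1155 cells. These genes are the rows of the count table whose gene symbol is BCL2, BCL2L1, MCL1, BAX, BAK1, BCL2L11, BBC3, PMAIP1, BID or BIK, and all 10 were found among the 58735 genes listed and passed the filter on low counts. H1155 is a human lung cancer line that the labels call a neuroendocrine large cell lung cancer. Poly-T–selected RNA from 3 libraries of wild-type H1155 cells (WT) and 3 of H1155-*GFI1*-KO cells (GFI1-KO) was sequenced. Both were grown in DMEM with 10% FBS and left untreated. The knockout was made with CRISPR/Cas9 and a pair of guides at the GFI1 promoter region, and GFP-positive cells were sorted as monoclonal clones, so the GFI1-KO libraries may stand for as little as 1 clone. How many clones lie behind them, and whether the libraries of a group came from separate cultures, is not given in the sources used here, so the p-values measure only the spread between these libraries, which may be technical.

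The BCL2 family sets the threshold for apoptosis at the outer mitochondrial membrane. Its pro-survival proteins (BCL2, BCL-XL from BCL2L1, and MCL1) hold back the effectors BAX and BAK, which otherwise oligomerize, open the membrane and release cytochrome c. The BH3-only proteins carry stress signals to the family: BIM from BCL2L11, PUMA from BBC3 and BID can bind every pro-survival protein, NOXA from PMAIP1 binds mainly MCL1, and BIK is anchored at the endoplasmic reticulum. The study asked whether GFI1, a zinc finger repressor, protects cancer cells from the death that follows loss of attachment, and the comparison here asks whether transcripts of pro-survival and pro-death genes differ between the labelled groups.

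Library totals were 14882914 to 16102215 counts in WT and 17503794 to 17692882 in GFI1-KO, so 3 counts correspond to 0.170 to 0.202 CPM. GFI1 itself had 153, 106 and 125 counts in WT and 174, 188 and 170 in GFI1-KO (log2 fold change 0.31, SE 0.12, adjusted p = 0.0273 by edgeR). The label GFI1-KO thus did not go with a lower GFI1 count, and every direction below rests on the labels. These counts are of RNA, whereas the study probed GFI1 protein by immunoblot and describes its H1155-*GFI1*-KO cells as GFI1-negative. It also reports that the floating H1155 clusters turned into adherent single cells after the deletion. Of 8 neuroendocrine markers, 5 were called higher and 3 lower, with a summed level of 425 to 434.5 FPKM in WT and 472 to 473.5 in GFI1-KO. Markers of other cells were low or mixed: 6 haematopoietic markers summed to 0.101 to 0.200 FPKM in WT and 0.109 to 0.189 in GFI1-KO with CD3E and HBB at 0, 6 fibroblast markers summed to 17.7 to 18.1 and 12.49 to 12.95 FPKM with DCN at 0, 4 endothelial markers to 3.53 to 3.97 and 1.76 to 1.99 FPKM, and 5 epithelial markers to 41.5 to 44.4 and 44.6 to 49.9 FPKM. Within these lists genes went opposite ways, with log2 fold changes of −2.23 for EPCAM and −2.31 for CDH1 beside 0.45 for KRT8, and of −3.24 for PDGFRB beside an increase of COL3A1 from 2 or 3 counts to 129 to 170 (named after their values were seen). Their part in the results was not tested. In such bulk RNA, fewer cells that express a gene and less RNA per cell cannot be told apart.

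Of the 7 pro-death genes 6 were higher in GFI1-KO and 0 lower, while the 3 pro-survival genes moved in both directions. BAX, BAK1, BBC3 and BIK were each at least 2.00-fold higher. PMAIP1 and BID rose by smaller steps in this fit (1.09-fold and 1.23-fold), and BCL2L11 did not differ beyond the replicate spread. Among the pro-survival genes BCL2L1 rose 1.32-fold and MCL1 1.05-fold, while BCL2 was 0.872 times its WT level. Once GC content and gene length were taken into account, as given further on, the calls of BCL2 and BCL2L1 were lost, and the differences became 1.84-fold for BAX, 1.499-fold for BAK1, 1.615-fold for BBC3, 1.47-fold for BIK and 1.51-fold for PMAIP1. In all, 8 of the 10 genes were called higher and 1 lower at an adjusted p of at most 0.05 by edgeR's quasi-likelihood test. Calls were common in these libraries: 36.5% of the 17514 tested genes were called higher and 35.9% lower. In the same way, all GFI1-KO values lay above all WT values for 8 of the 10 genes and below them for 1, and over all tested genes this held for 37.5% and 37.0%. The median log2 fold change was 1.00 over the 7 pro-death genes and 0.07 over the 3 pro-survival genes, beside 0.000495 over all tested genes.

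The promoters of the pair of effectors and of the BH3-only gene with the largest fold change are shown first, since these genes were higher together. GFI1 is known to bind DNA through an AATC core, which reads GATT on the other strand, and either form is in capitals below. The bases are from RefSeq windows on GRCh38.p14, written 5′ to 3′ along the gene's strand and trimmed to the part upstream of the gene's exons in GENCODE release 44. BAX is chr19:48954625-48954814 on the plus strand, BAK1 is chr6:33580294-33580526 on the minus strand, and BBC3 is chr19:47232767-47232917 on the minus strand.
BAX: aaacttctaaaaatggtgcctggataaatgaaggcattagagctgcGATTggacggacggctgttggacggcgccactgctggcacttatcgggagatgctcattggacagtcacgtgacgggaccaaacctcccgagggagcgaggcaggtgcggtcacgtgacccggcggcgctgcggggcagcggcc
BAK1: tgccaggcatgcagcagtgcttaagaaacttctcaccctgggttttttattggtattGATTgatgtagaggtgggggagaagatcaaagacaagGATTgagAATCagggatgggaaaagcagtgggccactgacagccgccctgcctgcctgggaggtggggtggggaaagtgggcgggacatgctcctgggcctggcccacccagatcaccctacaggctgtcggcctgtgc
BBC3: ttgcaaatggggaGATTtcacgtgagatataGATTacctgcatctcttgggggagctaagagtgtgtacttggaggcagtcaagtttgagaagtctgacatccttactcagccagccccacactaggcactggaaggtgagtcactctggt

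These stretches held 1 core match for BAX, 3 for BAK1 and 2 for BBC3. Over the full windows of 300 bases, from 250 before to 50 after the start, BBC3 had 5 matches, BAK1 had 4 and BAX had 1. Genes with smaller fold changes reached similar numbers: BCL2L1 had 4 and 1 in its windows, and those of BID had 0 to 4. BCL2L11, which was not called, had 1. Windows were given for 8 of the 10 genes, none for MCL1 and BIK, and 6 of the 8 had the core in a window, as did 10 of their 13 windows. BCL2 and PMAIP1 had no match in theirs. The core is short, and 69.0% of 35116 promoter windows of the same length held it, with a median of 1 match and a 90th percentile of 3. Such matches describe letters and not bound sites.

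**Figure D1:**
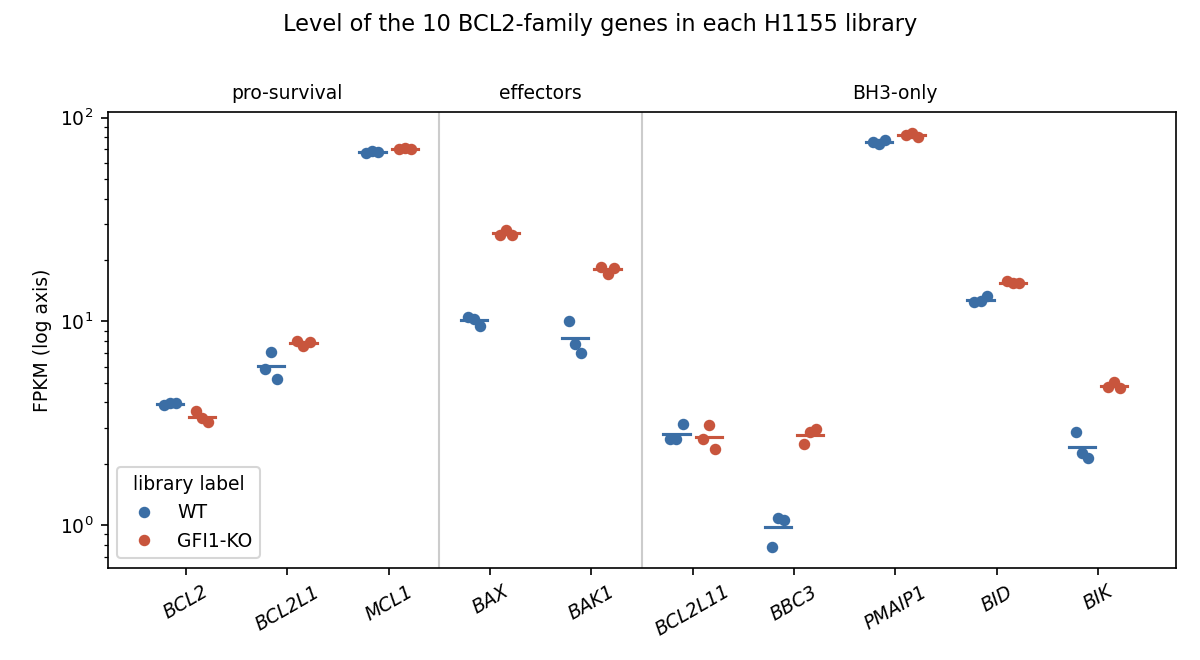
Level of each gene in each library, in FPKM (the count scaled to gene length and library total) on a log axis. Blue points are the 3 WT libraries, red points the 3 GFI1-KO libraries, and horizontal bars the group means. BAX, BAK1, BBC3 and BIK show the widest separation between groups, and MCL1 and PMAIP1 stand far above the other genes in all 6 libraries.

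Normalized counts below are counts divided by the effective library size (TMM) and scaled to its mean over the 6 libraries, and log2 fold changes are GFI1-KO over WT with their standard error (SE). Exact permutation tests on a single gene cannot go below p = 0.1 with 3 libraries against 3, and they gave 0.1 for each of the 10 genes except BCL2L11.

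Both effectors were higher in GFI1-KO. BAX (ENSG00000087088, chr19:48954815-48961798 of GRCh38, plus strand) makes the cytosolic effector, which moves to mitochondria when activated. Its normalized counts were 450.5, 439 and 406 in WT and 1142, 1215 and 1145 in GFI1-KO, for means of 432 ± 23.1 and 1167 ± 41.3 (SD, n = 3). The groups lay far apart, by much more than the spread within either. The log2 fold change was 1.43 (SE 0.06, adjusted p = 2.48e-17 by edgeR). BAK1 (ENSG00000030110, chr6:33572547-33580293, minus strand) makes BAK, the effector that resides in the mitochondrial membrane. It had 366.5, 282 and 254 normalized counts in WT and 685, 630 and 677 in GFI1-KO, and its means were 301 ± 58.6 and 664 ± 29.6 (SD, n = 3). WT replicate 1 was the highest of the WT libraries and still lay below all GFI1-KO libraries. The log2 fold change was 1.14 (SE 0.09, adjusted p = 1.08e-11 by edgeR). Some reads of BAK1 may belong elsewhere, since its pseudogene BAK1P1 or the overlapping GGNBP1 holds 14.4% of the 50-base stretches of its transcripts. Those genes had at most 11 and 9 counts in any library.

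BBC3 had the largest fold change of the 10 genes in this fit (BAX had with the GC and length offsets, at 0.88 beside 0.69) and the lowest FPKM in WT. It encodes PUMA, a strong BH3-only killer (ENSG00000105327, chr19:47220822-47232766, minus strand). Raw counts were 40, 51 and 53 in WT and 139, 160 and 166 in GFI1-KO. The highest WT count had a 95% Poisson interval of 39.7 to 69.3 and the lowest GFI1-KO count one of 117 to 164, so counting error alone does not bridge the groups. After normalization the means were 51.0 ± 8.72 and 147 ± 12.6 (SD, n = 3), with a log2 fold change of 1.53 (SE 0.16, adjusted p = 3.05e-09 by edgeR). BIK (ENSG00000100290, chr22:43110748-43129712, plus strand) was likewise scarce, with 44, 32 and 32 counts in WT and 79, 84 and 79 in GFI1-KO. The highest WT count had an interval of 31.97 to 59.07 and the lowest GFI1-KO counts one of 62.6 to 98.5. Its normalized means were 38.0 ± 6.16 and 76.4 ± 2.80 (SD, n = 3), a log2 fold change of 1.00 (SE 0.20, adjusted p = 6.09e-05 by edgeR).

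The abundant BH3-only transcripts moved by smaller steps in this fit, although PMAIP1 was level with BAK1 and BIK with the GC and length offsets (log2 fold change 0.60, beside 0.58 and 0.55). PMAIP1, which encodes NOXA (ENSG00000141682, chr18:59899948-59904306, plus strand), had 2788, 2732 and 2874 normalized counts in WT and 3052, 3135 and 2999 in GFI1-KO. The groups did not overlap, but the difference of means, 2798 ± 71.4 against 3062 ± 68.3 (SD, n = 3), was small (log2 fold change 0.13, SE 0.04, adjusted p = 0.00195 by edgeR). BID links death receptors to mitochondria once caspase-8 has cut it (ENSG00000015475, chr22:17734138-17774770, minus strand). Normalized counts of BID were 915, 918 and 975 in WT and 1168, 1137 and 1140 in GFI1-KO, with means of 936 ± 33.8 and 1148 ± 17.3 (SD, n = 3). All GFI1-KO libraries were above all WT libraries, with a log2 fold change of 0.29 (SE 0.05, adjusted p = 7.71e-06 by edgeR).

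BCL2L11 was the exception among the pro-death genes. It encodes BIM, which is best known as the BH3-only protein held down by ERK signaling (ENSG00000153094, chr2:111119378-111168447, plus strand). Its normalized counts were 290, 289 and 345 in WT and 293.5, 342 and 263 in GFI1-KO, and the groups overlapped. Means were 308 ± 32.3 and 299 ± 40.1 (SD, n = 3), and the difference was within this spread (log2 fold change −0.04, SE 0.10, adjusted p = 0.713 by edgeR, exact two-sided permutation p = 0.9). The gene overlaps MIR4435-2HG on the other strand, which had 287 to 305 counts in every library, and 9.58% of its 50-base words are shared with it. The strand setting of the counting is not given in the sources used here, so reads of the pair cannot be told apart where they overlap.

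The pro-survival genes did not move together. BCL2, the founding member of the family (ENSG00000171791, chr18:63123346-63320128, minus strand), had 752.5, 768 and 767 normalized counts in WT and 714, 657 and 626 in GFI1-KO. All GFI1-KO libraries were below all WT libraries, with means of 763 ± 8.78 and 665.5 ± 44.6 (SD, n = 3) and a log2 fold change of −0.20 (SE 0.06, adjusted p = 0.00483 by edgeR). Without GFI1-KO replicate 3 the log2 fold change of BCL2 was −0.15 (adjusted p = 0.0539). BCL2L1 (ENSG00000171552, chr20:31664452-31723989, minus strand) had 319, 386 and 283 normalized counts in WT and 445, 417 and 438 in GFI1-KO. WT replicate 2 came closest to the GFI1-KO libraries without reaching them, and the means were 330 ± 52.2 and 433 ± 14.5 (SD, n = 3), for a log2 fold change of 0.40 (SE 0.09, adjusted p = 0.000263 by edgeR). The value of BCL2L1 is uncertain because 35.6% of the 50-base words of its transcripts are shared with the antisense gene ABALON, which had 10 to 15 counts in WT and 20 to 36 in GFI1-KO. MCL1 encodes a short-lived protein that holds back BAK and is bound by NOXA (ENSG00000143384, chr1:150574551-150579738, minus strand). Normalized counts of MCL1 were 4817, 4927 and 4882 in WT and 5113, 5172 and 5103 in GFI1-KO. The means, 4876 ± 55.2 and 5129 ± 37.0 (SD, n = 3), differed by a log2 fold change of 0.07 (SE 0.03, adjusted p = 0.041 by edgeR). That call was lost under 13 of 17 alternatives, leaving out any 1 library and DESeq2 among them, so 7 genes were then called higher.

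**Figure D2:**
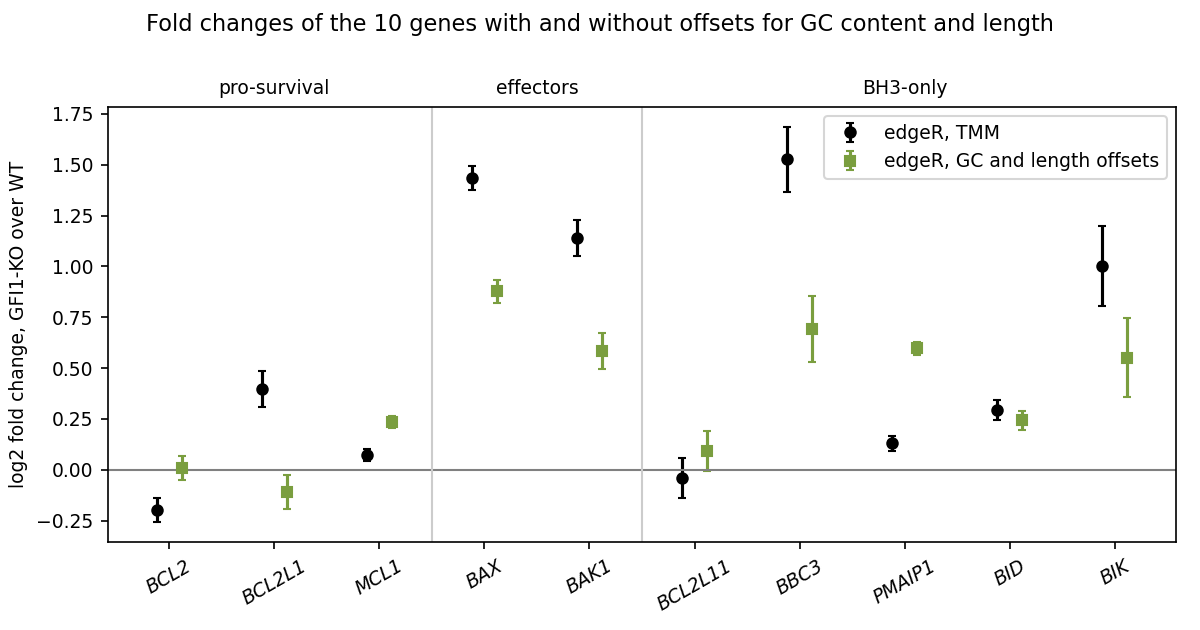
Log2 fold change of each gene (GFI1-KO over WT) with its SE, from edgeR with TMM factors (black circles) and with added offsets for GC content and gene length (green squares). Black points of the effectors, BBC3 and BIK are at 1.00 or above and fall to between 0.55 and 0.88 with the offsets, while PMAIP1 rises from 0.13 to 0.60.

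The fold changes of the 10 genes ran with the GC content of their longest transcripts. GC content was lowest for PMAIP1 (36.7%) and highest for BBC3 (69.7%), with a median of 48.2% over the tested genes. Across the 10 genes the Spearman correlation of log2 fold change with GC content was 0.879 (Pearson 0.847), and across 17415 tested genes the Spearman correlation was 0.574. These points share the same 6 libraries and are not independent. A second fit offset each library for its own trend with GC content and gene length, after which the correlations were 0.43 (Pearson 0.354) and 0.0254. The offsets were fitted to that trend in these same libraries, group difference included, so the drop over all genes was built in. Whether that trend is technical or part of the difference between the cells was not tested.

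With the offsets, 7 of the 10 genes were called higher and 0 lower, beside 32.5% and 28.3% of 17415 genes. The 6 pro-death genes that had been called stayed called: log2 fold changes became 0.88 for BAX (adjusted p = 1.55e-12 by edgeR), 0.58 for BAK1, 0.69 for BBC3, 0.55 for BIK, 0.24 for BID and 0.60 for PMAIP1. BAX, BAK1, BBC3 and BIK were thus smaller by more than 1.5 times on the log2 scale, and PMAIP1 larger. MCL1 stayed called at 0.24 (adjusted p = 2.67e-07). BCL2 and BCL2L1 lost their calls and changed sign, at 0.01 (adjusted p = 0.902) and −0.11 (adjusted p = 0.273), and BCL2L11 remained uncalled at 0.09 (adjusted p = 0.438). The median was 0.58 over the 7 pro-death genes and 0.01 over the 3 pro-survival genes in this fit.

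Per unit of length, a pair of genes whose proteins oppose each other made up most of the RNA of these 10 genes, though not of the family: with the 13 further genes given below, their share was 46.7% in WT and 41.8% in GFI1-KO. PMAIP1 (75.97 ± 1.95 FPKM in WT, 82.2 ± 1.81 in GFI1-KO, SD, n = 3) and MCL1 (67.7 ± 0.793 and 70.4 ± 0.507) accounted for 39.0% to 40.8% and 34.88% to 35.97% of the summed FPKM of the 10 genes in WT, and for 34.7% to 35.4% and 29.9% to 30.2% in GFI1-KO. In WT the order of FPKM levels went on with BID (12.8), BAX (10.1), BAK1 (8.26), BCL2L1 (6.04), BCL2 (3.93), BCL2L11 (2.81), BIK (2.42) and BBC3 (0.974). The library ranges of BAX and BAK1, of BAK1 and BCL2L1, and of BCL2L11 and BIK overlapped there. In GFI1-KO, BAX (27.1 FPKM) and BAK1 (18.01) stood above BID (15.5), followed by BCL2L1 (7.84), BIK (4.81), BCL2 (3.39), BBC3 (2.77) and BCL2L11 (2.70), and the ranges of the last pair overlapped.

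Summed by class, the effectors changed most. BAX and BAK1 together gave 18.4 ± 2.08 FPKM in WT and 45.1 ± 0.169 in GFI1-KO (SD, n = 3). The 5 BH3-only genes summed to 94.95 ± 2.56 and 108 ± 2.28 FPKM, a smaller relative difference because PMAIP1 carries most of that sum. The 3 pro-survival genes summed to 77.7 ± 1.56 and 81.7 ± 0.364 FPKM, most of it MCL1. These sums over chosen genes are descriptions and were not tested. They are without the GC and length offsets, with which PMAIP1 was 1.51-fold, BAX 1.84-fold and BAK1 1.499-fold higher. In that fit PMAIP1 thus rose more, and the effectors less, than in these sums.

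The ratio of the summed pro-survival FPKM to the summed pro-death FPKM was 0.666, 0.718 and 0.674 in WT and 0.536, 0.526 and 0.538 in GFI1-KO. No GFI1-KO library reached a WT value, and the group means were 0.686 ± 0.0279 and 0.533 ± 0.00668 (SD, n = 3), so that of GFI1-KO was 0.778 times that of WT. Without MCL1 and PMAIP1, the highest gene of each class, the ratio was 0.267 ± 0.0302 in WT and 0.159 ± 0.00659 in GFI1-KO. The level of the ratio depends on the length scaling: in CPM, without gene length, it was 1.23 in WT and 0.949 in GFI1-KO. BAX to BCL2, a ratio often used as an index of apoptotic priming, was 2.72, 2.60 and 2.41 in WT and 7.27, 8.41 and 8.32 in GFI1-KO, and the mean of GFI1-KO was 3.11 times that of WT. Effectors to pro-survival genes stood at 0.237 ± 0.0287 and 0.552 ± 0.00168, a 2.33-fold difference. With the GC and length offsets, in a calculation added after the values had been seen that applies the fitted fold changes to the WT mean FPKM, these differences were 1.83-fold for BAX to BCL2 and 1.47-fold for effectors to pro-survival genes, and pro-survival to pro-death was 0.770 times that of WT. BAK1 to MCL1 was 0.122 ± 0.0250 and 0.256 ± 0.0131. PMAIP1 to MCL1, another pair whose proteins bind each other, was 1.12 ± 0.0343 and 1.17 ± 0.0180 and overlapped between groups. Both of these pair ratios are without the GC and length offsets. With them PMAIP1 was 1.51-fold, BAK1 1.499-fold and MCL1 1.18-fold higher. In that fit PMAIP1 thus rose more than MCL1, and BAK1 rose less than without the offsets.

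**Figure D3:**
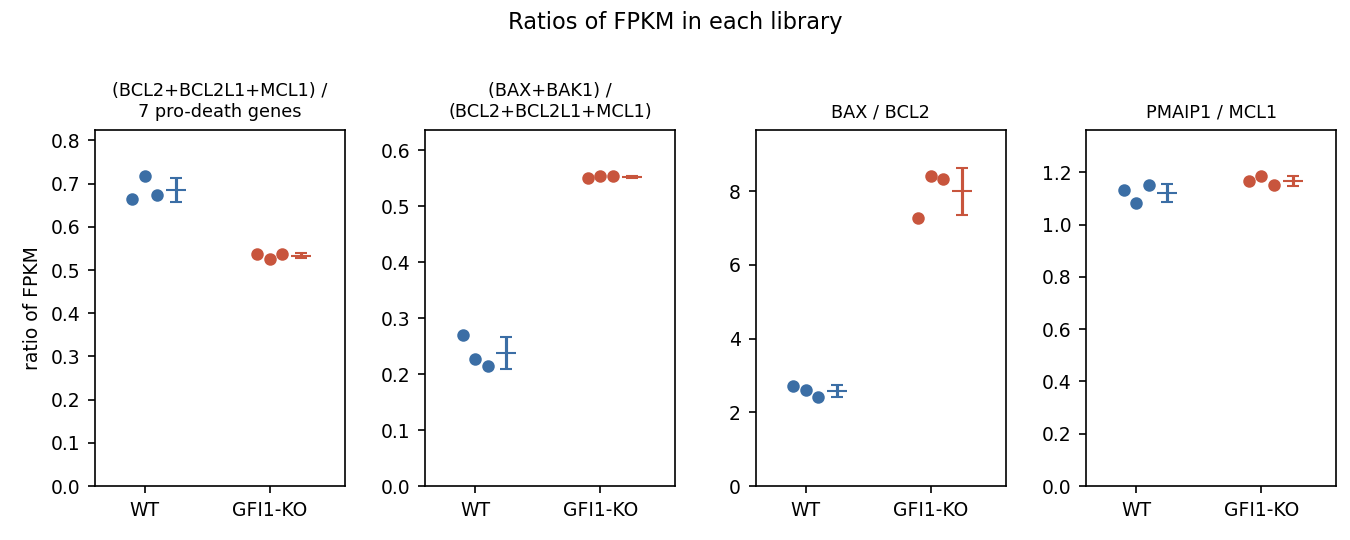
Ratios of FPKM in each library, each panel with a linear axis from 0. Points are the 3 WT (blue) and 3 GFI1-KO (red) libraries, and the bars beside them the mean and SD. BAX to BCL2 is above 7 in GFI1-KO and below 3 in WT, and PMAIP1 to MCL1 overlaps between the groups. All ratios shown are without the GC and length offsets.

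Of 13 further BCL2-family genes, 10 were tested, 6 were called higher and 3 were called lower (their median on the log2 scale was 0.54). Over all tested genes 36.5% were called higher and 35.9% lower, and 32.5% and 28.3% with the GC and length offsets. The counts of calls in this and the following lists stand beside those shares. BCL2L12, a divergent relative, had the largest increase (86.4 ± 4.09 to 276 ± 16.9 normalized counts, SD, n = 3; log2 fold change 1.67, adjusted p = 5.21e-13 by edgeR), although its value is uncertain, since 24.5% of its 50-base words are shared with BCL2L12P1 or the overlapping IRF3. BMF, a BH3-only sensor of cytoskeletal change, rose from 209 ± 14.7 to 431 ± 8.58 (log2 fold change 1.04). BOK, an effector-like protein, and BAD, the BH3-only protein switched by phosphorylation, had log2 fold changes of 0.74 and 0.74, and both calls were lost with the GC and length offsets (−0.03 and −0.06). BCL2L2, which encodes the pro-survival BCL-W, and BCL2L13 rose by 0.58 and 0.40 on the log2 scale. BNIP3 and BNIP3L, the mitophagy receptors of the family, fell by 0.48 and 0.50, the latter being 0.000809 and not called with the offsets. BCL2L15 had 10 to 13 counts in WT and 5 to 8 in GFI1-KO (log2 fold change −1.06, adjusted p = 0.0358), a call that the offsets also removed. By the same measure BCL2L2 (20% of words shared with HOMEZ, PPP1R3E or BCL2L2-PABPN1, which overlap it), BAD (16.2%, with GPR137) and BNIP3 (12.9%, with BNIP3P1) are uncertain as well. HRK did not pass the test (0.50, adjusted p = 0.0944), BCL2A1 had 0 counts in all 6 libraries, and BCL2L10 and BCL2L14 were below the filter with at most 9 and 3 counts. With the offsets, 4 of these genes were called higher and 1 lower, and the median was 0.20.

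Genes of the apoptosome, the caspases and the caspase inhibitors moved in both directions. Of 8 tested genes of the apoptosome and caspases, 1 was called higher and 3 lower (median log2 fold change −0.01). CASP2, an initiator caspase, fell by 0.63 and APAF1, the scaffold of the apoptosome, by 0.55 on the log2 scale. With the offsets both calls held their direction at −0.35 and −0.17, and 4 genes in all were called higher and 3 lower. Among 7 tested caspase inhibitors and antagonists, 2 were called higher and 3 lower (median 0.03). HTRA2, a mitochondrial protease that counters the inhibitors, rose by 0.91 and BIRC3 (cIAP2) by 0.80 (1.43 with the offsets), while BIRC6 fell by 0.43 (−0.07 and not called with the offsets). XIAP, the direct caspase inhibitor, was at −0.12 and turned to 0.39 with the offsets, so its direction depends on the scaling. In that fit 5 genes of this list were called higher and 1 lower, and its median was 0.52.

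The lists of the death receptor pathway and of mitochondrial membrane partners were mixed too. In the death receptor pathway, 7 of 10 tested genes were called higher and 2 lower, beside 36.5% and 35.9% over all tested genes. The median was 0.44, and 0.29 with the offsets, when 6 were higher and 2 lower. FAS rose by 0.59, TNFRSF1A, the main TNF receptor, by 0.93 and its adaptor TRADD by 1.02 (0.30 with the offsets), whereas TNFRSF21 (death receptor 6) was at −1.56. Among 10 mitochondrial membrane partners, 3 were called higher and 4 lower (median −0.01), and 3 and 3 with the offsets (median −0.01). OPA1, which keeps cristae closed around cytochrome c, fell by 0.84 (−0.29 with the offsets), the fission enzyme DNM1L by 0.69 (−0.17) and VDAC2, the channel that binds BAK, by 0.57 (−0.44), while the nuclease ENDOG had 0.63 and lost its call with the offsets (−0.22).

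Of 8 transcription factors and regulators that act on the family, 2 were called higher and 6 lower (median −0.28). Over all tested genes these shares were 36.5% and 35.9%. With the offsets, 2 of these regulators were called higher and 5 lower (median −0.30), beside 32.5% and 28.3% over all genes. The ubiquitin ligase MDM2 and its partner MDM4 were lower, at −0.66 and −0.76 (−0.14 and −0.39 with the offsets). TP73, a transcription factor that can activate BBC3, and DDIT3, the stress factor CHOP, had log2 fold changes of 0.73 and 0.74 (0.21 and 0.60 with the offsets). All 4 genes for turnover of the MCL1 protein were called, 1 higher and 3 lower (median −0.52, and −0.21 with the offsets). Such calls were common, since 12680 of the 17514 tested genes were called. The ligase subunits FBXW7 and BTRC were at −0.92 and −0.33 and the deubiquitinase USP9X at −0.71 (−0.15 for BTRC and −0.27 for USP9X with the offsets), while the ligase HUWE1 was at 0.18. These measurements are of RNA and give no level of MCL1 protein.

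The genes whose pattern over the 6 libraries was most like that of BBC3, by Pearson's r of log2 CPM, included SPAG4 (0.9992) and BOC (0.9990), with log2 fold changes of 0.93 and 3.31. Such likeness was common, since 22.6% of the 11220 protein-coding genes compared had an r of at least 0.95 with BBC3, and the points share the difference between the groups.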

How the data were processed

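The data are RNA-Seq counts from H1155 cells, with 3 libraries labelled WT and 3 labelled GFI1-KO. The authors deposited counts per gene and library, without normalization, and other values for each gene (length, start and end in bases) from their annotation. Their methods name poly-T bead selection, a NovaSeq system, Hisat2 alignment to GRCh38/hg38 and featureCounts, whereas the submitters' processing notes name Bowtie2 and HTSeq with hg38. The annotation release, strand setting and multimapping rule are not given in the sources used here.

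Library totals were 14882914 to 17692882 counts, and Poisson intervals (95%) and the floor of 3 counts cover counting error only. FPKM scales each count to the library total and to the gene length that the authors give. All genes were tested together with edgeR 4.0.16 (R 4.3.3): TMM factors, filterByExpr, its quasi-likelihood F test, and p-values adjusted by Benjamini-Hochberg over 17514 genes, with no fold change minimum. The SE was taken as the absolute log2 fold change over the root of F. GC content is that of the longest GENCODE release 44 transcript of each gene. The offsets are natural splines with 5 degrees of freedom in GC content and gene length per library. A gene was called uncertain where over 10% of its 50-base words occur in other genes. Alternatives were DESeq2 1.42.0, limma-voom (limma 3.58.1), other scaling and filters, a replicate block, 1 surrogate variable (sva 3.50.0), the offsets, and each library left out. Replicates of a group differed beyond sampling noise (chi-square per gene of 1.82 to 4.14 between pairs). The main edgeR fit was also run on simulated counts, with far fewer changed genes than were called here and no GC or length trend. That run therefore says nothing on the offsets or on the GC trend of these libraries. Python 3.11.15, pandas 2.3.3, scipy 1.17.1 and matplotlib 3.10.9 were used.

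The 10 genes, the wider lists and the tests were chosen with earlier results of these data known. Named genes are the 10, GFI1, all of the further BCL2-family genes, up to 4 genes per wider list (largest fold changes among called genes that average 100 counts or more, with no overlap between groups) and the 3 genes most like the member with the largest fold change. Results on some genes that this rule names are not reported here. Where a symbol had several rows (DIABLO), the row with more counts was used. Promoter sequences are from RefSeq on GRCh38.p14.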

Additional observations from a re-analysis of the deposited data

How the results depend on the processing

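BAX, BAK1, BBC3, BIK, BID and PMAIP1 kept their direction and call under all 17 alternatives, and 148 of 170 member fold changes under an alternative kept theirs. With GC and length offsets BCL2 reversed to 0.00919 (0.00836 with the replicate block), BCL2L1 to −0.11 (−0.11) and BCL2L11, never called, to 0.0909 (0.0880). Leaving out each library moved BCL2L11 between −0.144 and 0.0487, above 0 without WT replicate 3 (0.0410) or GFI1-KO replicate 3. The number of members called higher was 7 or 8. That called lower was 0 with the offsets, alone or with the block, and 0 to 1 when each library was left out (0 without GFI1-KO replicate 3). The offsets, alone or with the block, changed the genes called from 9 to 5 among further BCL2-family genes and from 4 to 7 among apoptosome and caspase genes. Leaving out each library gave 3 to 6 in place of 5 caspase inhibitor genes (3 without GFI1-KO replicate 2).

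The log2 fold change of GFI1 missed the threshold with upper-quartile factors (0.27), the offsets (0.17, with the block 0.18) and DESeq2 (0.31), and ranged from 0.21 to 0.43 when each library was left out, losing its call without WT replicate 2 (0.21), WT replicate 3 (0.28) or GFI1-KO replicate 2 (0.27). Genes called over the table numbered 12680, and 10462 to 13258 under the alternatives. Upper-quartile factors called 6007 higher and 6646 lower. The ratio of pro-survival to pro-death genes was 1.23 and 0.949 (WT, GFI1-KO) in CPM and 0.267 and 0.159 without the highest genes, and leaving out each library gave 0.670 to 0.696 and 0.531 to 0.537. With the offsets, added for ratios after seeing the data, the fold difference of BAX to BCL2 went from 3.10 to 1.83 and that of effectors to pro-survival genes from 2.33 to 1.47. The cause of these changes was not tested.

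Deviations of same-numbered libraries from their group means correlated at −0.00337 to 0.023, and those of other pairs at −0.0516 to 0.0422, so no pairing by number was seen. This check cannot exclude that same-numbered libraries were prepared together, since it detects only shared deviations large enough to show. With the replicate block 12573 genes, 7 members higher and 1 lower were called, the call of MCL1 being lost (0.07, adjusted p = 0.0539). At 32 to 53 counts per WT library, BBC3 and BIK are the values that depth limits most among the 10 genes.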
